A study of Homo sapiens with 8 samples.

Results

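Antisense long noncoding RNAs are described here as they appeared in P-bodies and in the cytosolic fraction of the human acute myeloid leukaemia lines HEL and MOLM-13. They are 122 of the 60196 gene symbols used, chosen by 2 criteria, a symbol ending in -AS and a digit and raw counts that reached 400 when summed over the 8 libraries. The summed counts are thus what selected them, and the levels below are in part a result of that choice. OIP5-AS1, EPB41L4A-AS1 and symbols starting with LINC were not taken, and 1546 other antisense-named symbols lay under the threshold. The sum weights deep libraries, and the P-body libraries held 57.3% of all counts and the HEL libraries 65.3%. When the same number of symbols was taken by mean CPM over the libraries, added after seeing the data, 113 of the 122 were chosen again. Just inside the threshold stood FOXD2-AS1 with 408 and UBAC2-AS1 with 403 counts, and just outside RALY-AS1 with 397 and ELOA-AS1 with 392.

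Each line gave 2 libraries of P-bodies and 2 of cytosol, 8 in all. HEL cells derive from an erythroleukaemia, and MOLM-13 cells have monocytic features. The labels name no treatment or genetic change, give the same culture medium to all groups, and do not say how the P-bodies were isolated. Each line stands for itself alone, and whether the paired libraries came from separate cultures is not stated, so a p-value here reflects library-to-library spread alone, part or all of which may be technical.

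P-bodies are granules without a membrane in the cytoplasm, where untranslated messenger RNAs gather together with the decapping and mRNA decay machinery. Antisense RNAs are transcribed from the strand opposite to a gene, often from a start next to that gene's promoter or from inside its body. Many remain in the nucleus near their site of transcription, others are exported, and some pair with or compete for regulators of the mRNA on the other strand. Each is named for the gene it lies against, here called its sense gene.

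In the GENCODE 29 annotation of GRCh38, 88 of the 122 shared exon bases with the sense gene on the other strand. A further 25 overlapped only its span, and 8 started within 5000 bases of it head to head without overlap. The sense gene of TRG-AS1 was not among the annotated symbols. GENCODE 29 classed 87 as antisense, 19 as processed transcript, 12 as lincRNA, 3 as transcribed pseudogenes and 1, KRT10-AS1, as protein coding. Transcripts ranged from 505 to 16182 bases, with a median of 2361, and from 36.1% to 63.7% GC, with a median of 47.5%.

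Stretches of 4 antisense RNAs are shown because base composition runs through the results below: 1 called higher in P-bodies of both lines and 3 called lower in both. Each is the middle 150 bases of the longest exon stretch that no other annotated gene covers, read 5′ to 3′ on the RNA's own strand from the GENCODE 29 transcript sequences, with CG dinucleotides in capitals. They lie on GRCh38 at chr5:43573690-43573839 (NNT-AS1, minus strand), chr1:47433312-47433461 (FOXD2-AS1, minus strand), chr5:478805-478954 (SLC9A3-AS1, plus strand) and chr16:89717680-89717829 (VPS9D1-AS1, plus strand). OTUD6B-AS1, which had the greatest mean change of those higher in both lines, was passed over for NNT-AS1, the next in rank. The MOLM-13 call of NNT-AS1 (0.28 log2, edgeR adjusted p = 0.0433) was lost in several alternative fits, as given below.
NNT-AS1: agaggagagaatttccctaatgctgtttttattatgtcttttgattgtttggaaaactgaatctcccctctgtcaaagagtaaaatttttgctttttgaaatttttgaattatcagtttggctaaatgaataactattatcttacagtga
FOXD2-AS1: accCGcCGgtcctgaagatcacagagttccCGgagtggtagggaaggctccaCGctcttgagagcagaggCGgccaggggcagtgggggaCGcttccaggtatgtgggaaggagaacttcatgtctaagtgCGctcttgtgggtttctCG
SLC9A3-AS1: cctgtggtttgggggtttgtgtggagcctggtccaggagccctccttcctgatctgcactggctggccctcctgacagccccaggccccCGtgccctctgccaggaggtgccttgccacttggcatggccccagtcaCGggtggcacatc
VPS9D1-AS1: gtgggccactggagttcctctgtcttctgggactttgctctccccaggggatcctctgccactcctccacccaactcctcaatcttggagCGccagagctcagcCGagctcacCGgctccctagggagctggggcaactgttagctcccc
The NNT-AS1 stretch was 29.3% GC with no CG. The FOXD2-AS1 stretch was 60.0% GC with 8 CG, the SLC9A3-AS1 stretch 66.7% with 2 and the VPS9D1-AS1 stretch 62.7% with 3. The letters CG read the same on both strands, and 73.0% of the 122 stretches taken this way held them at least once, with a median of 2 per stretch. The 4 stretches differ more than the RNAs do by call: the median number of CG was 1 in those called higher and 2 in those called lower in HEL, and 1 and 3 in MOLM-13, and 9 of 15 higher RNAs in HEL and 9 of 14 in MOLM-13 held at least 1.

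P-body libraries held 17058567 and 18071473 counts in HEL and 9868469 and 11000536 in MOLM-13, and cytosolic libraries 13153551 and 15569634 in HEL and 5897625 and 7098927 in MOLM-13. Summed erythroid and megakaryocytic markers gave 1940 to 1966 scaled CPM in HEL P-bodies and 3131 to 3392 in HEL cytosol, and 52.6 to 76.4 over all MOLM-13 libraries. Summed monocytic and granulocytic markers gave 2708 to 2784 scaled CPM in MOLM-13 P-bodies and 3992 to 4253 in MOLM-13 cytosol, and 71.7 to 108 over all HEL libraries, where MPO and ELANE were at 0. Both lines therefore carried the markers of their labels. Lymphoid markers summed to 1.77 to 3.06 scaled CPM in HEL and to 115 to 176 in MOLM-13. In both MOLM-13 fractions 3 of the 7 lymphoid markers had a mean of at least 1 scaled CPM, while CD3E and CD2 were at 0. The erythroid and the monocytic sums were lower in P-body than in cytosolic libraries of both lines, and their part in the changes below was not tested. Scaled CPM are read counts per 1e+06 reads after TMM scaling, so levels are relative to the bulk of genes in a library, with no spike-in behind them.

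The 122 antisense RNAs took a small and nearly constant share of each library. That share was 0.201% and 0.205% of counts in HEL P-bodies against 0.212% and 0.207% in HEL cytosol, and 0.224% and 0.226% in MOLM-13 P-bodies against 0.224% and 0.228% in MOLM-13 cytosol. OTUD6B-AS1 alone held 25.1% of their 207583 counts. Without OTUD6B-AS1 the share was 0.139% and 0.146% in HEL P-bodies against 0.189% and 0.188% in HEL cytosol, and 0.129% in both MOLM-13 P-body libraries against 0.187% and 0.190% in MOLM-13 cytosol. The other 121 thus took a smaller part of every P-body library than of any cytosolic library of the same line, on the scale of library totals. On the TMM scale the 121 summed to 1579 and 1614 scaled CPM in HEL P-bodies against 1691 and 1686 in HEL cytosol, and to 1500.1 and 1509 in MOLM-13 P-bodies against 1626 and 1631 in MOLM-13 cytosol.

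More of the antisense RNAs fell in P-bodies than rose, in both lines. In HEL 118 could be tested, of which 15 (12.7%) were higher in P-bodies and 33 (28.0%) lower by edgeR's quasi-likelihood test at an adjusted p under 0.05. Over all 14772 symbols tested in HEL, 27.5% were higher and 27.1% lower. In MOLM-13 108 could be tested, of which 14 (13.0%) were higher and 35 (32.4%) lower, beside 32.4% higher and 28.5% lower among all 14089 symbols tested. The lower counts thus lay near the share of all symbols, and the higher counts under it. The median log2 change of the antisense RNAs was −0.18 in HEL and −0.12 in MOLM-13, against −0.06 and −0.04 for all symbols. In MOLM-13 the 14 became 9 without cytosol replicate 2. With plain library totals instead of TMM the median of all symbols was −0.39 in HEL and −0.47 in MOLM-13, and there were 5 higher and 66 lower antisense RNAs in HEL and 4 higher and 70 lower in MOLM-13.

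The sources used here do not give the strand setting of the counting, so reads of an antisense RNA and of an overlapping gene on the other strand cannot be told apart. Libraries of whole cell populations cannot tell fewer cells carrying an RNA from less RNA in each cell. All 122 were tested in at least 1 line. The 14 not tested in MOLM-13 and the 4 not tested in HEL had too few counts there, and MBNL1-AS1 in HEL and OVCH1-AS1 in MOLM-13 passed the count filter through the cytosolic libraries alone. NUTM2A-AS1, NUTM2B-AS1 and CCDC144NL-AS1 may share reads with near-identical copies.

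Of the 104 antisense RNAs tested in both lines, 6 were higher in both, 16 lower in both, 2 called in opposite directions and 41 called in neither. Among all 11984 symbols tested in both lines, 2933 were higher in both and 1783 lower in both. A further 105 were higher in HEL and lower in MOLM-13, and 290 the reverse. The 16 thus lay near the share of all symbols, and the 6 under it. The log2 changes had the same sign in 75, and across the 104 RNAs Spearman's rho between the lines was 0.61, a description over RNAs that share libraries. Some of the called RNAs changed by 2-fold or more, a cut that was not counted over all symbols. They included OTUD6B-AS1 and NNT-AS1 among those higher in HEL, and OTUD6B-AS1 and NRSN2-AS1 among those higher in MOLM-13. Lower by 2-fold or more were 7 in each line, of which FOXD2-AS1, SLC9A3-AS1, VPS9D1-AS1 and TMEM147-AS1 passed in both.

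**Figure D1:**
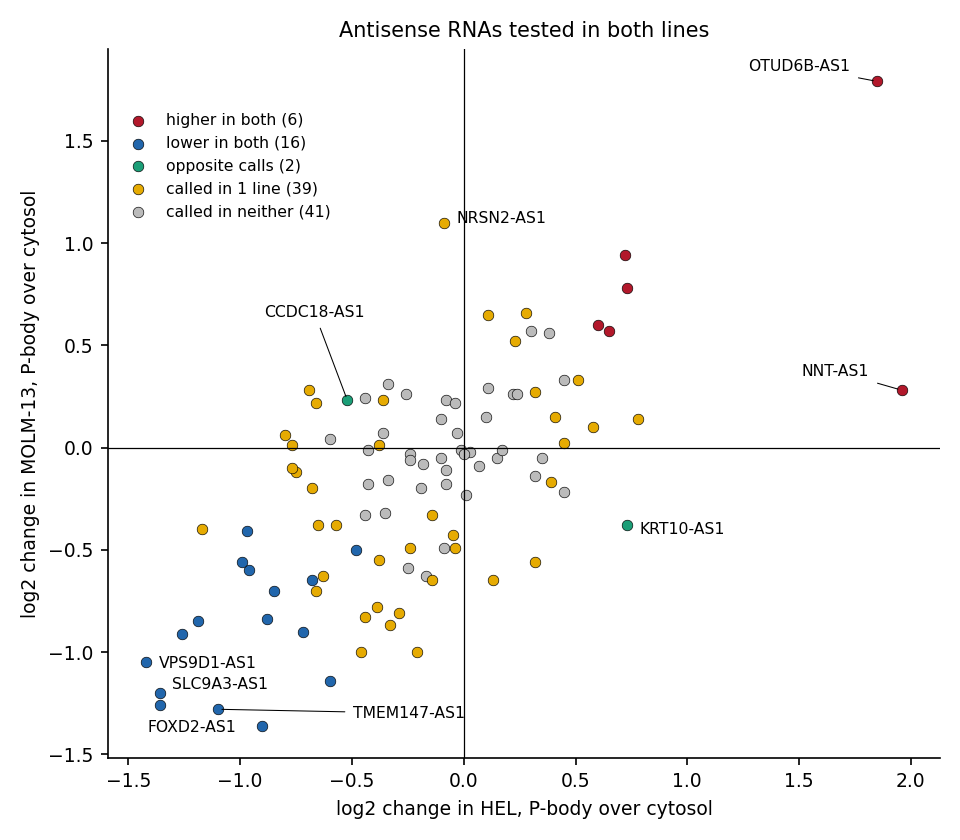
Log2 change (P-body over cytosol) in HEL on the x axis and in MOLM-13 on the y axis for the 104 antisense RNAs tested in both lines. Each point is 1 RNA, coloured by its calls (edgeR, adjusted p under 0.05). OTUD6B-AS1 stands alone at 1.85 and 1.79, 16 blue points fill the lower left, and NNT-AS1 lies far to the right at 1.96 with a MOLM-13 change of 0.28.

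OTUD6B-AS1 starts head to head with OTUD6B, which encodes a deubiquitinase of the OTU family, and shares no exon base with any annotated gene. It had 693 and 659 scaled CPM in HEL P-bodies, against 201 and 174 in HEL cytosol. MOLM-13 P-bodies held 1116 and 1130.1, against 318 and 330.1 in MOLM-13 cytosol. Every P-body library was more than 3 times above every cytosolic library of its line. The log2 change was 1.85 ± 0.081 (SE) in HEL, a 3.60-fold rise (adjusted p = 1.04e-10), and 1.79 ± 0.045 in MOLM-13, a 3.46-fold rise (adjusted p = 9.84e-21). Per kilobase of exon it was the most abundant of the 122 in all groups, with 113 scaled CPM per kb in HEL P-bodies and 31.2 in HEL cytosol, and 187 in MOLM-13 P-bodies and 53.9 in MOLM-13 cytosol. Its sense mRNA rose as well, by 1.54 ± 0.086 log2 in HEL (adjusted p = 1.08e-09) and 1.09 ± 0.080 in MOLM-13 (adjusted p = 1.02e-11).

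The other 5 raised in both lines changed less. ZNF337-AS1, against a zinc finger gene, had 5.58 and 5.40 scaled CPM in HEL P-bodies against 3.19 and 3.46 in HEL cytosol, and 12.8 and 13.5 in MOLM-13 P-bodies against 7.53 and 6.29 in MOLM-13 cytosol. The rise was 0.72 ± 0.23 log2 in HEL (adjusted p = 0.0154) and 0.94 ± 0.19 in MOLM-13 (adjusted p = 0.000123). ENTPD1-AS1, against the gene of the ectonucleotidase CD39, had 11.7 and 9.57 in HEL P-bodies against 6.52 and 6.28 in HEL cytosol, and 11.7 and 12.7 in MOLM-13 P-bodies against 6.34 and 7.75 in MOLM-13 cytosol. Its P-body libraries lay above its cytosolic libraries in both lines, and its log2 change was 0.73 ± 0.18 in HEL and 0.78 ± 0.19 in MOLM-13 (adjusted p = 0.00286 and 0.00109). WAC-AS1 starts within 250 bases of WAC, the gene of an adaptor in histone ubiquitination, and rose by 0.65 ± 0.13 log2 in HEL and 0.57 ± 0.085 in MOLM-13, with 31.4 and 36.8 scaled CPM in HEL P-bodies against 23.3 and 20.1 in HEL cytosol. PSMA3-AS1, across from a proteasome subunit gene, rose by 0.60 in both lines, and its level was 138 and 126 scaled CPM in MOLM-13 P-bodies against 88.2 and 86.2 in MOLM-13 cytosol. ZNF337-AS1 lost its HEL call without HEL cytosol replicate 1 (0.66, adjusted p = 0.0771) and by DESeq2 (adjusted p = 0.0693). Of the 6, OTUD6B-AS1 alone was called higher in both lines with library totals and also with the GC and length trend described below removed.

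**Figure D2:**
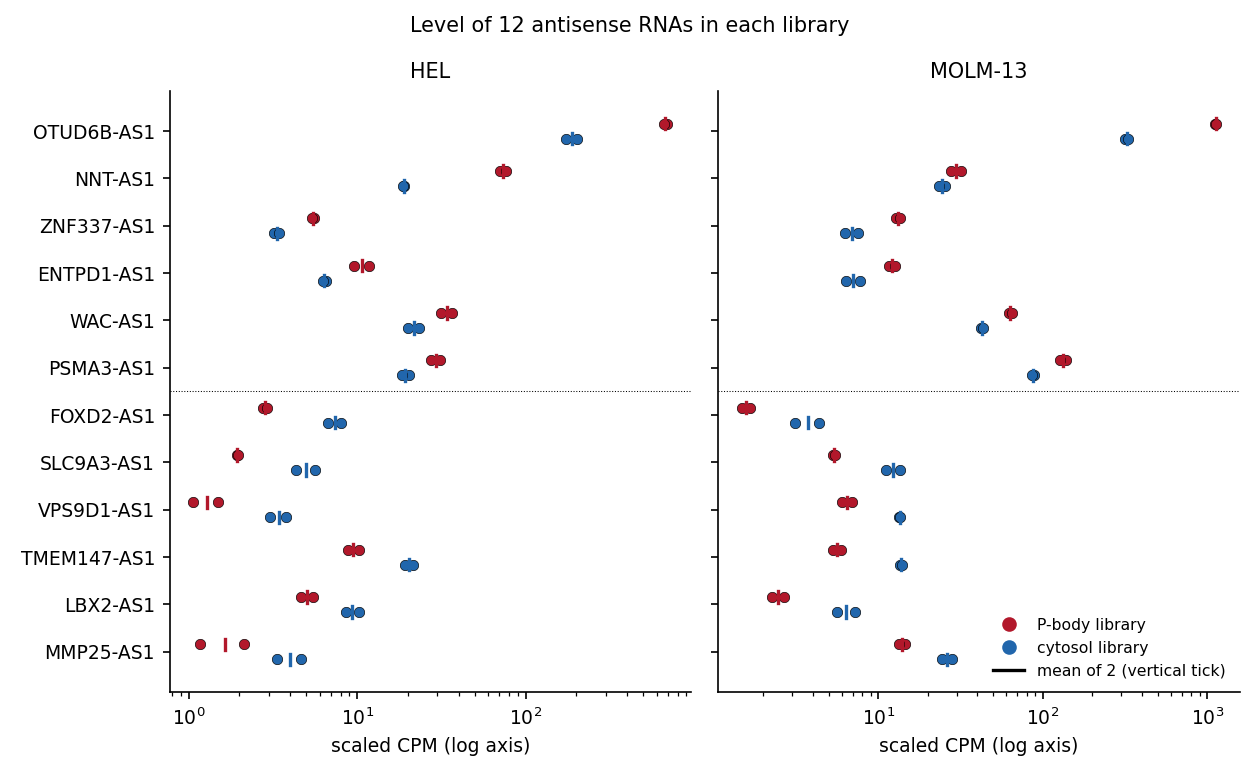
Scaled CPM on a log axis in each library for the 6 antisense RNAs with the greatest (above the dotted line) and the 6 with the lowest mean change among those called in the same direction in both lines. Points are single libraries, P-body above cytosol within each row, and the vertical ticks are means of 2. P-body and cytosolic points do not overlap in any row of either line. The RNAs were chosen by their calls, which favours such separation, so it describes them and tests nothing.

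The antisense RNAs lowered in both lines lie against genes of unrelated function. FOXD2-AS1 starts head to head with the forkhead factor gene FOXD2 and had 2.76 and 2.93 scaled CPM in HEL P-bodies against 8.01 and 6.69 in HEL cytosol. In MOLM-13 it had 1.49 and 1.66 in P-bodies against 3.10 and 4.36 in cytosol. The P-body libraries lay below the cytosolic ones in both lines, with a log2 change of −1.36 ± 0.23 in HEL, 2.58-fold lower (adjusted p = 0.000119), and −1.26 ± 0.34 in MOLM-13 (adjusted p = 0.00271). SLC9A3-AS1 lies against the gene of an epithelial sodium-proton exchanger and had 1.94 and 1.95 in HEL P-bodies against 4.35 and 5.65 in HEL cytosol, and 5.31 and 5.45 in MOLM-13 P-bodies against 11.1 and 13.6 in MOLM-13 cytosol. Its log2 change was −1.36 ± 0.27 in HEL and −1.20 ± 0.20 in MOLM-13 (adjusted p = 0.000585 and 1.29e-05). In MOLM-13 the SLC9A3 mRNA itself was at 0 in 3 of 4 libraries and had 1 count in the other.

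VPS9D1-AS1 had 1.07 and 1.50 scaled CPM in HEL P-bodies against 3.06 and 3.81 in HEL cytosol, and 6.90 and 6.05 in MOLM-13 P-bodies against 13.4 and 13.6 in MOLM-13 cytosol. It was 2.68-fold lower in HEL P-bodies (adjusted p = 0.00175) and 2.08-fold lower in MOLM-13 P-bodies (adjusted p = 2.6e-05). TMEM147-AS1, against the gene of a membrane protein of the endoplasmic reticulum, had 10.2 and 8.78 in HEL P-bodies against 19.1 and 21.5 in HEL cytosol, and 5.94 and 5.34 in MOLM-13 P-bodies against 13.6 and 13.9 in MOLM-13 cytosol, for log2 changes of −1.10 ± 0.15 in HEL and −1.28 ± 0.19 in MOLM-13. LBX2-AS1, against a homeobox gene, fell by 0.90 log2 in HEL and by 1.36 in MOLM-13, where it had 2.65 and 2.25 in P-bodies against 7.23 and 5.57 in cytosol. Each of these RNAs was below its cytosolic level in every P-body library, which their choice by call favours. MMP25-AS1, against a leukocyte metalloproteinase gene, fell by 1.26 log2 in HEL and by 0.91 in MOLM-13. The other 10 lowered in both lines ran from −0.48 (URB1-AS1) to −1.19 (CHRM3-AS2) in HEL and from −0.41 (RUSC1-AS1) to −1.14 (TMPO-AS1) in MOLM-13. Without HEL cytosol replicate 2 the HEL change of MMP25-AS1 was −1.0 (adjusted p = 0.068), and the MOLM-13 change of FOXD2-AS1 was −0.96 (adjusted p = 0.105) without MOLM-13 cytosol replicate 2 and missed the threshold by DESeq2 (adjusted p = 0.0586). With the GC and length trend removed, LBX2-AS1 in HEL had −0.34 (adjusted p = 0.169) and VPS9D1-AS1 in MOLM-13 −0.42 (adjusted p = 0.0657).

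The most abundant antisense RNAs by scaled CPM did not move as 1 group. In HEL they were OTUD6B-AS1, FGD5-AS1, PROSER2-AS1 and PRKCQ-AS1. FGD5-AS1 had 138 and 136 in HEL P-bodies against 139 and 137 in HEL cytosol, and 25.3 and 26.4 in MOLM-13 P-bodies against 24.8 and 27.0 in MOLM-13 cytosol. P-body and cytosolic libraries overlapped in both lines, with a log2 change of −0.01 in both lines (SE 0.076 in HEL and 0.12 in MOLM-13). PROSER2-AS1 had 52.1 and 57.2 in HEL P-bodies against 75.0 and 81.9 in HEL cytosol (−0.52 ± 0.094, adjusted p = 0.000263) and under 1 scaled CPM in every MOLM-13 library. PRKCQ-AS1, head to head with the gene of protein kinase C theta, rose by 0.45 ± 0.10 log2 in HEL (adjusted p = 0.00162), with 51.5 and 56.9 in P-bodies against 39.2 and 40.3 in cytosol. In MOLM-13 the 4 most abundant were OTUD6B-AS1, PSMA3-AS1, THUMPD3-AS1 and WAC-AS1. THUMPD3-AS1 was lower there, with 65.6 and 71.1 in P-bodies against 86.3 and 85.0 in cytosol (−0.33 ± 0.075, adjusted p = 0.000554). With library totals PRKCQ-AS1 lost its HEL call (0.12, adjusted p = 0.31), while FGD5-AS1 was called lower in HEL (−0.33) and in MOLM-13 (−0.45), and THUMPD3-AS1 lower in HEL too (−0.47).

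Some antisense RNAs were present in 1 line only at a testable level, and 6 of the 14 tested only in HEL and 4 of the 4 tested only in MOLM-13 were called. Over all symbols tested, 27.5% were called higher and 27.1% lower in HEL, and 32.4% higher and 28.5% lower in MOLM-13. Whether these few RNAs depart from those shares was not tested. HECW2-AS1 and ESAM-AS1 were among the HEL-only RNAs called higher (0.45 and 0.77 log2), and PROSER2-AS1, ZNF667-AS1 and PAX8-AS1 were called lower. The MOLM-13-only RNAs were CCDC144NL-AS1, called higher (0.46), and PCED1B-AS1, BSG-AS1 and ELFN1-AS1, called lower by 0.60, 0.37 and 1.18 log2. GATA2-AS1 was the only antisense RNA of the list of genes mutated or fused in myeloid leukaemia. It lies in the span of GATA2, a haematopoietic transcription factor, and had 10.8 and 10.6 in HEL P-bodies against 8.56 and 9.80 in HEL cytosol, and 6.79 and 6.28 in MOLM-13 P-bodies against 5.46 and 5.45 in MOLM-13 cytosol. Its log2 change did not pass the test in HEL (0.22 ± 0.16, adjusted p = 0.275) or MOLM-13 (0.26 ± 0.23, adjusted p = 0.322), and was called higher in both with the GC and length trend removed (0.65 in HEL and 0.61 in MOLM-13).

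The change in P-bodies differed between the lines for 12 of the 122, by the interaction term of edgeR's quasi-likelihood fit over all 8 libraries, MOLM-13 minus HEL. A positive difference was called for 2 and a negative one for 10, beside 9.15% positive and 13.0% negative among all 17477 symbols tested. The median difference of the antisense RNAs was −0.19 and that of all symbols −0.11. This fit scaled all 8 libraries together, so a difference need not equal the gap between the changes fitted in each line. FGD5-AS1, at −0.01 in both lines, had a difference of −0.19 (not called). With RLE scaling the median of all symbols was −0.04, and 10 of the 12 kept their call. NNT-AS1 had the lowest p. It starts beside NNT, the gene of the mitochondrial transhydrogenase that makes NADPH. It had 27.6 and 31.7 scaled CPM in MOLM-13 P-bodies against 25.4 and 23.4 in MOLM-13 cytosol, and 70.9 and 76.3 in HEL P-bodies against 19.0 and 18.7 in HEL cytosol. The libraries were well apart in HEL and close together in MOLM-13. Its log2 change was 0.28 ± 0.12 in MOLM-13 (adjusted p = 0.0433) and 1.96 ± 0.10 in HEL (adjusted p = 6.84e-10), and the difference was −1.87 ± 0.16 (adjusted p = 7.13e-08). The MOLM-13 call was lost without P-body replicate 2 (0.20) or cytosol replicate 2 (0.24), by DESeq2 (adjusted p = 0.185) and under both other filters, and the MOLM-13 change was −0.16 with library totals, whereas the difference was called in every alternative run.

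KRT10-AS1 and CCDC18-AS1 were called in opposite directions in the lines. KRT10-AS1, against an epidermal keratin gene, had 12.2 and 13.9 in MOLM-13 P-bodies against 14.9 and 18.6 in MOLM-13 cytosol, and 6.96 and 8.13 in HEL P-bodies against 4.41 and 4.67 in HEL cytosol. The difference in the joint fit was −1.29 ± 0.26 (adjusted p = 0.000835). The changes fitted in each line were −0.38 ± 0.16 in MOLM-13 and 0.73 ± 0.20 in HEL. CCDC18-AS1, against a coiled-coil protein gene, had 51.4 and 58.0 in MOLM-13 P-bodies against 45.2 and 47.8 in MOLM-13 cytosol, and 27.6 and 28.2 in HEL P-bodies against 42.3 and 38.0 in HEL cytosol. The difference was 0.56 ± 0.15 (adjusted p = 0.0082), with log2 changes of 0.23 ± 0.091 in MOLM-13 (adjusted p = 0.0322) and −0.52 ± 0.11 in HEL (adjusted p = 0.00092). The MOLM-13 call of KRT10-AS1 was lost without P-body replicate 1 (−0.27) or cytosol replicate 2 (−0.18) and by DESeq2 (adjusted p = 0.223), and its HEL call with library totals (0.41, adjusted p = 0.0955) or with the GC and length trend removed (0.02). That of CCDC18-AS1 was lost without P-body replicate 2 (0.16) or cytosol replicate 1 (0.22) and by DESeq2 (adjusted p = 0.14), and the value was −0.21 with library totals. Its difference missed the threshold without MOLM-13 P-body replicate 2 (0.48, adjusted p = 0.0564) and with the GC and length trend removed (0.35, adjusted p = 0.0752).

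NRSN2-AS1 was the other RNA with a positive difference, 1.0 ± 0.26 (adjusted p = 0.00813). It had 15.1 and 15.4 in MOLM-13 P-bodies against 7.08 and 7.14 in MOLM-13 cytosol, a rise of 1.10 ± 0.18 log2, and 5.77 and 5.27 in HEL P-bodies against 5.50 and 6.23 in HEL cytosol, where the libraries overlapped. EMC3-AS1, against a gene of the endoplasmic reticulum membrane insertase, differed by −1.08 ± 0.26 (adjusted p = 0.00361), with 12.4 and 11.1 in MOLM-13 P-bodies against 16.8 and 18.0 in MOLM-13 cytosol. In HEL EMC3-AS1 had 5.58 and 5.53 in P-bodies against 4.82 and 4.09 in cytosol. CARD8-AS1, against an inflammasome sensor gene, differed by −0.75 ± 0.19 (adjusted p = 0.00611), with 18.3 and 14.8 in MOLM-13 P-bodies against 20.1 and 17.4 in MOLM-13 cytosol and 35.1 and 32.7 in HEL P-bodies against 25.5 and 26.1 in HEL cytosol. EMC3-AS1 lost this call without HEL P-body replicate 1 (−0.76) or HEL cytosol replicate 2 (−0.67), and CARD8-AS1 without HEL P-body replicate 1 (−0.39), HEL cytosol replicate 1 (−0.44) or HEL cytosol replicate 2 (−0.48). The count of 10 negative differences became 3 without HEL P-body replicate 1, HEL cytosol replicate 1 or HEL cytosol replicate 2, 5 without either MOLM-13 P-body replicate, 6 without MOLM-13 cytosol replicate 1 and 4 without MOLM-13 cytosol replicate 2. The 2 positive ones became 9 without HEL P-body replicate 1, 6 without HEL cytosol replicate 1 and 1 without MOLM-13 P-body replicate 2.

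Antisense RNAs and their sense mRNAs often moved apart. The ratio of antisense to sense within a library does not depend on how libraries are scaled, and it was tested with limma over all antisense-sense pairs with both symbols tested, 299 in HEL and 258 in MOLM-13. In HEL the ratio was higher in P-bodies for 21 (20.4%) and lower for 30 (29.1%) of the 103 pairs of the antisense RNAs described here, beside 11.4% higher and 30.8% lower over all pairs. In MOLM-13 it was higher for 9 (9.89%) and lower for 30 (33.0%) of 91, beside 8.53% higher and 35.7% lower over all pairs. The lower shares were thus close to those of all antisense pairs. Of 85 pairs tested in both lines, 6 were higher in both and 20 lower in both, and MRPL20-AS1 was lower in HEL and higher in MOLM-13. Ratio calls in both lines were not counted over all antisense-sense pairs, so these numbers describe the 85 and test nothing. The sense genes themselves were higher for 38 and lower for 30 of 94 in MOLM-13, and higher for 32 and lower for 35 of 105 in HEL. In HEL limma gave each pair's spread almost wholly from all pairs (335 prior degrees of freedom, 11.6 in MOLM-13), so small HEL p-values rest on that shared spread. The HEL counts of 21 and 30 became 8 and 14 without HEL cytosol replicate 1 and 7 and 12 without HEL cytosol replicate 2.

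Among the pairs whose ratio was lower in P-bodies, the sense mRNA was called higher in 22 of 30 in HEL (73.3%) and in 27 of 30 in MOLM-13 (90.0%), beside 81.5% of 92 and 92.4% of 92 such pairs among all antisense-sense pairs. The antisense RNA was called lower in 15 of the 30 in HEL and in 10 of the 30 in MOLM-13, beside 34 of 92 and 24 of 92 over all such pairs. A lower ratio itself favours pairs with a raised sense mRNA, so these counts describe the pairs and test nothing. ZSCAN16-AS1, against a SCAN zinc finger gene, had 5.89 and 7.09 scaled CPM in HEL P-bodies against 9.37 and 8.30 in HEL cytosol, and 24.2 and 21.7 in MOLM-13 P-bodies against 44.4 and 38.0 in MOLM-13 cytosol. ZSCAN16 mRNA had 38.3 and 36.8 in HEL P-bodies against 12.2 and 9.92 in HEL cytosol, and 21.5 and 21.9 in MOLM-13 P-bodies against 4.28 and 6.78 in MOLM-13 cytosol. The antisense libraries were lower and the sense libraries higher in P-bodies of both lines, and the log2 ratio changed by −2.20 ± 0.21 in HEL and −2.80 ± 0.26 in MOLM-13 (adjusted p = 6.57e-06). By edgeR the fall of ZSCAN16-AS1 itself was called in MOLM-13 (−0.83 ± 0.11 log2, adjusted p = 6.81e-07) but not in HEL (−0.44 ± 0.19, adjusted p = 0.0572). ASH1L-AS1 lies against the gene of a histone methyltransferase and had 4.08 and 3.77 in HEL P-bodies against 6.72 and 5.71 in HEL cytosol, whereas ASH1L mRNA had 735 and 659 in HEL P-bodies against 175 and 180.0 in HEL cytosol. Its log2 ratio changed by −2.61 ± 0.25 in HEL and −1.58 ± 0.27 in MOLM-13. BAZ2B-AS1, against a bromodomain protein gene, had 10.9 and 8.54 in MOLM-13 P-bodies against 9.15 and 10.4 in MOLM-13 cytosol, overlapping, while BAZ2B mRNA had 2296 and 2235 in MOLM-13 P-bodies against 669 and 659.7 in MOLM-13 cytosol. Its log2 ratio changed by −1.78 ± 0.22 in MOLM-13 and by −2.25 ± 0.25 in HEL.

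ZNF667-AS1, against a KRAB zinc finger gene, had 9.59 and 10.5 in HEL P-bodies against 13.5 and 12.7 in HEL cytosol, while ZNF667 mRNA had 155 and 153 in HEL P-bodies against 39.2 and 35.5 in HEL cytosol. The log2 ratio changed by −2.42 ± 0.18 in HEL, and both genes had 6 counts or fewer in each MOLM-13 library. THAP9-AS1, against a gene derived from a transposase, had 14.7 and 13.5 in HEL P-bodies against 17.2 and 19.5 in HEL cytosol, and the log2 ratio changed by −1.70 ± 0.15 in HEL and −0.87 ± 0.25 in MOLM-13. THUMPD3-AS1 lies against the gene of a tRNA methyltransferase. While it fell in MOLM-13, THUMPD3 mRNA had 133 and 127 in MOLM-13 P-bodies against 56.8 and 53.4 in MOLM-13 cytosol, and the log2 ratio changed by −1.56 ± 0.14 (adjusted p = 6.57e-06). CCDC18 mRNA had 750.4 and 709.9 in MOLM-13 P-bodies against 241 and 257 in MOLM-13 cytosol, and the log2 ratio of CCDC18-AS1 changed by −1.32 ± 0.16 in MOLM-13 and by −1.18 ± 0.11 in HEL. Of these, the MOLM-13 ratio of THAP9-AS1 missed the threshold without MOLM-13 P-body replicate 2 (−0.71, adjusted p = 0.0859).

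**Figure D3:**
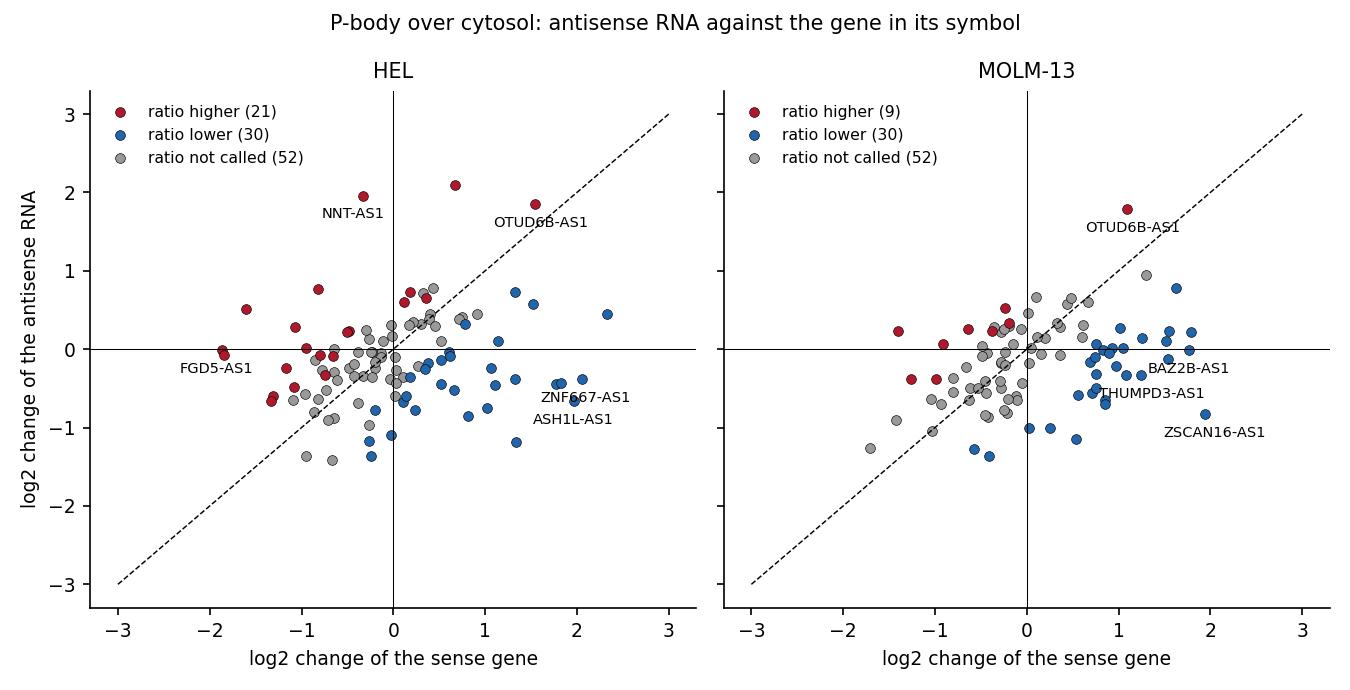
Log2 change (P-body over cytosol) of each antisense RNA on the y axis against that of its sense gene on the x axis, in HEL (103 pairs) and MOLM-13 (91 pairs). Colours give the call of the antisense to sense ratio (limma, adjusted p under 0.05) and the dashed line marks equal change. The sense gene was called higher for 22 of the 30 pairs with a lower ratio in HEL and 27 of the 30 in MOLM-13, and NNT-AS1 stands at the upper left in HEL.

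Among the pairs whose ratio was higher in P-bodies, the sense mRNA was called lower in 16 of 21 in HEL (76.2%) and in 7 of 9 in MOLM-13 (77.8%), beside 79.4% and 68.2% of such pairs among all antisense-sense pairs. The antisense RNA was called higher in 7 of the 21 in HEL and in 3 of the 9 in MOLM-13, beside 10 of 34 and 8 of 22 over all such pairs. NNT-AS1 in HEL had the greatest ratio change among the pairs described here and was 1 of those 7. NNT mRNA had 133 and 124 scaled CPM in HEL P-bodies against 162 and 161 in HEL cytosol (−0.33 ± 0.077 log2, adjusted p = 0.00217), opposite to the antisense RNA, and the log2 ratio rose by 2.28 ± 0.11. In MOLM-13 the ratio of NNT-AS1 to NNT changed by −0.07 ± 0.19. FGD5-AS1 held its level in HEL while FGD5, an exchange factor gene of endothelial cells, had 4.64 and 5.79 in P-bodies against 18.7 and 19.4 in cytosol, for a log2 ratio change of 1.84 ± 0.19. GATA2 mRNA had 127 and 144 in HEL P-bodies against 186 and 200.1 in HEL cytosol, and 12.6 and 10.2 in MOLM-13 P-bodies against 15.5 and 19.9 in MOLM-13 cytosol. The ratio of GATA2-AS1 to GATA2 was higher in P-bodies by 0.74 ± 0.19 log2 in HEL (adjusted p = 0.0005) and by 0.87 ± 0.24 in MOLM-13 (adjusted p = 0.0118). The other ratios higher in both lines belonged to OTUD6B-AS1, DENND3-AS1, HERPUD2-AS1, KRT10-AS1 and FOXP4-AS1.

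Calls of both partners can be set side by side for the same pairs. Of the 103 pairs in HEL, the antisense RNA was higher in 14 and lower in 28, the sense mRNA in 32 and 33. Over all 299 antisense-sense pairs in HEL, the antisense RNA was higher in 18 and lower in 55, the sense mRNA in 115 and 85. Of the 91 pairs in MOLM-13, the antisense RNA was higher in 13 and lower in 30, the sense mRNA in 36 and 29. Over all 258 in MOLM-13, the antisense RNA was higher in 23 and lower in 60, the sense mRNA in 111 and 76. Joint calls were not counted over all antisense-sense pairs, so those below describe single pairs and test nothing. In HEL both rose in 9 pairs and both fell in 9. The antisense RNA rose and the sense mRNA fell for NNT-AS1 and ESAM-AS1, and the antisense RNA fell and the sense mRNA rose for CCDC18-AS1, THAP9-AS1, CHRM3-AS2, SCAMP1-AS1, ZNF667-AS1, ZBTB11-AS1, INTS6-AS1 and ASH1L-AS1. In MOLM-13 both rose in 9 pairs and both fell in 15. There DENND3-AS1 rose against a fall of its sense mRNA, and THUMPD3-AS1, GABPB1-AS1, ZSCAN16-AS1, SCAMP1-AS1, EMC3-AS1, MBNL1-AS1 and TMPO-AS1 fell against a rise. SCAMP1-AS1 was in that set in both lines, with an antisense change of −0.85 ± 0.15 in HEL and −0.70 ± 0.18 in MOLM-13 beside sense changes of 0.81 ± 0.091 in HEL and 0.85 ± 0.091 in MOLM-13. Across pairs, Spearman's rho between antisense and sense change was 0.22 over 103 pairs in HEL and 0.34 over 91 in MOLM-13, with partners counted in the same libraries and sharing base composition and, in part, reads.

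Calls followed GC content in the antisense RNAs as in all symbols, but AT-rich antisense RNAs were higher less often than other AT-rich symbols, a comparison of counts that was not tested. The 122 were divided into 3 classes at 44.8% and 51.2% GC, a property the choice of RNAs did not use. In the GC-rich class, 1 was higher (PRKCQ-AS1) and 19 lower of 39 tested in HEL, and 0 were higher and 22 lower of 39 in MOLM-13 by edgeR, with 0 higher also at an unadjusted p under 0.05 and by DESeq2. In the AT-rich class, 10 were higher and 7 lower of 39 in HEL, and 9 higher and 7 lower of 34 in MOLM-13. In the GC-rich class 2.56% of the antisense RNAs were higher and 48.7% lower in HEL, against 3.78% and 49.4% of all symbols of that class, and 0% were higher and 56.4% lower in MOLM-13, against 5.6% and 53.3% of all symbols. In the AT-rich class 25.6% of the antisense RNAs were higher and 17.9% lower in HEL, against 57.9% and 7.32% of all symbols, and 26.5% were higher and 20.6% lower in MOLM-13, against 63.8% and 7.44% of all symbols. The median log2 change was −0.44 in the GC-rich and 0.11 in the AT-rich class in HEL, and −0.56 in the GC-rich and 0.03 in the AT-rich class in MOLM-13. For all symbols these medians were −0.44 and 0.55 in HEL and −0.45 and 0.69 in MOLM-13. Lower-count symbols pass the test less readily. Antisense RNAs called higher in HEL had a median of 17.4 scaled CPM, against 74.9 for protein-coding genes called higher. Antisense RNAs called higher had a median GC content of 39.9% in HEL and 42.9% in MOLM-13, those called lower 52.1% and 53.0%, and those not called 47.2% and 48.2%. Protein-coding genes had a wider gap, with a median of 41.5% among those called higher and 56.4% among those called lower in HEL, and of 42.2% and 58.4% in MOLM-13.

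Spearman's rho between log2 change and GC content was −0.49 over 118 antisense RNAs in HEL and −0.45 over 108 in MOLM-13. Over protein-coding genes it was −0.67 (11941 genes) in HEL and −0.72 (11227 genes) in MOLM-13, the same direction. Transcript length had a rho of −0.01 in HEL and 0.11 in MOLM-13. When the trend with GC and length over all annotated symbols was removed, the order of the classes turned. The AT-rich class then had 3 higher and 19 lower of its tested RNAs in HEL and 1 higher and 25 lower in MOLM-13, and the GC-rich class 4 higher and 12 lower in HEL and 4 higher and 10 lower in MOLM-13. With that trend removed, the median log2 change was −0.43 in HEL and −0.6 in MOLM-13 in the AT-rich class, and −0.12 and −0.22 in the GC-rich class. For all symbols it was −0.03 and −0.02. Calls of all symbols of each class were not counted with the trend removed, so these class counts describe the antisense RNAs and test nothing. PSMA3-AS1, called higher in both lines without that step, had −0.13 in HEL and −0.23 in MOLM-13 with it.

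**Figure D4:**
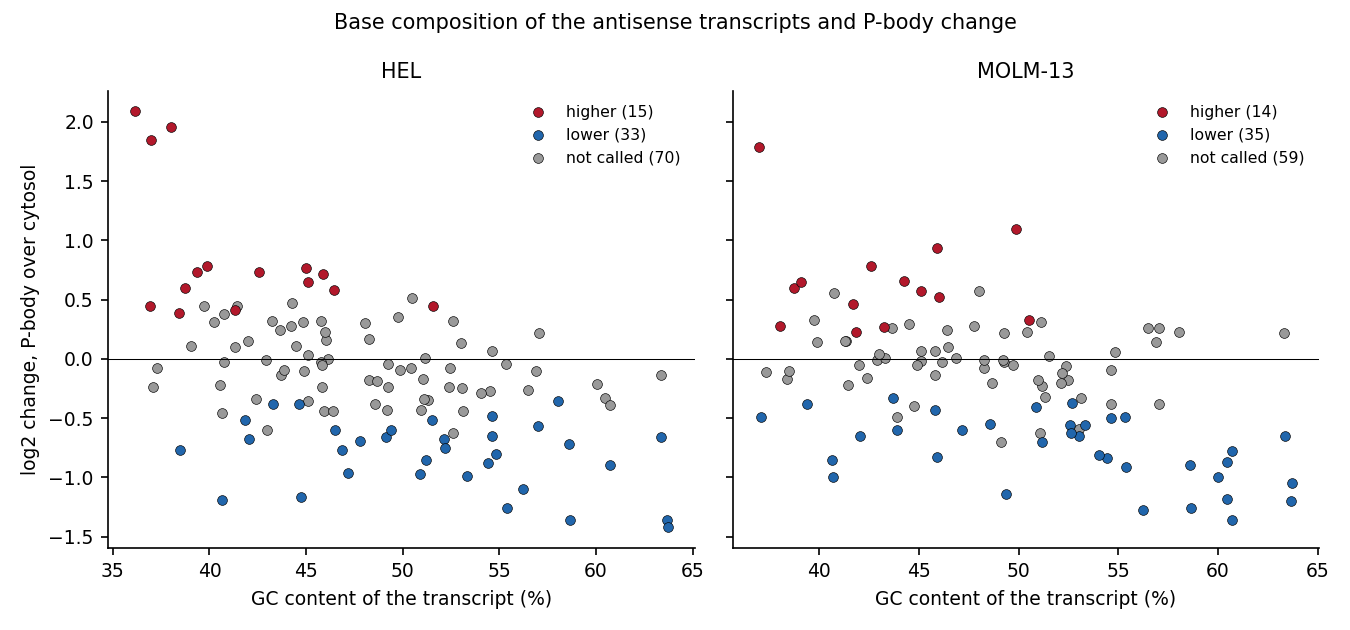
Log2 change (P-body over cytosol) on the y axis against the GC content of the longest annotated transcript on the x axis, for the 118 antisense RNAs tested in HEL and the 108 tested in MOLM-13. Points are single RNAs coloured by call (edgeR, adjusted p under 0.05). Red points lie mostly under 47% GC, and above 55% GC every called RNA is blue.

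The calls were also counted by how an antisense RNA lies to its sense gene. Those with shared exon bases were higher for 9 and lower for 28 of 86 tested in HEL (median −0.24), and higher for 7 and lower for 29 of 81 in MOLM-13 (median −0.18). Those that overlapped only the span were higher for 4 and lower for 1 of 23 in HEL (median 0.16), and higher for 5 and lower for 2 of 18 in MOLM-13 (median 0.24). All 8 head-to-head RNAs were tested in both lines, with 2 higher and 4 lower in each. Where genes on the other strand covered over 10% of the exon bases, 2 were higher and 17 lower of 47 in HEL and 4 higher and 20 lower of 48 in MOLM-13. Where they covered 10% or less, 13 were higher and 16 lower of 71 in HEL and 10 higher and 15 lower of 60 in MOLM-13. Median GC content moved with these classes: 48.4% for those with shared exon bases and 45.0% for the span-only ones among those tested in HEL. Over all symbols tested, 27.5% were higher and 27.1% lower in HEL, and 32.4% higher and 28.5% lower in MOLM-13. With the GC and length trend removed, the span-only RNAs had 4 higher and 6 lower in HEL (median −0.1) and 4 higher and 7 lower in MOLM-13 (median −0.23), so their balance of calls did not hold there. Those with shared exon bases then had 4 higher and 28 lower in HEL (median −0.23) and 4 higher and 33 lower in MOLM-13 (median −0.38). Whether these classes differ was not tested.

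In the median the 122 lay between other antisense and divergent transcripts on one side and sense genes on the other. The 218 antisense-named symbols under 400 counts that could be tested in HEL had a median log2 change of −0.32, with 6 higher and 30 lower, and the 190 in MOLM-13 a median of −0.33, with 10 higher and 33 lower. Divergent transcripts, whose symbols end in -DT, had medians of −0.42 over 203 in HEL and −0.23 over 162 in MOLM-13. LINC symbols had −0.03 over 188 in HEL and −0.16 over 118 in MOLM-13, with 37 higher and 22 lower in HEL and 19 higher and 26 lower in MOLM-13. Sense genes had medians of −0.04 in HEL and −0.02 in MOLM-13. Symbols of intronic transcripts were few, 7 tested in HEL and 11 in MOLM-13, with 1 higher in each line, 2 lower in HEL and 5 lower in MOLM-13. Lower-count symbols pass the test less readily, so their counts of calls are not comparable with those of the 122.

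**Figure D5:**
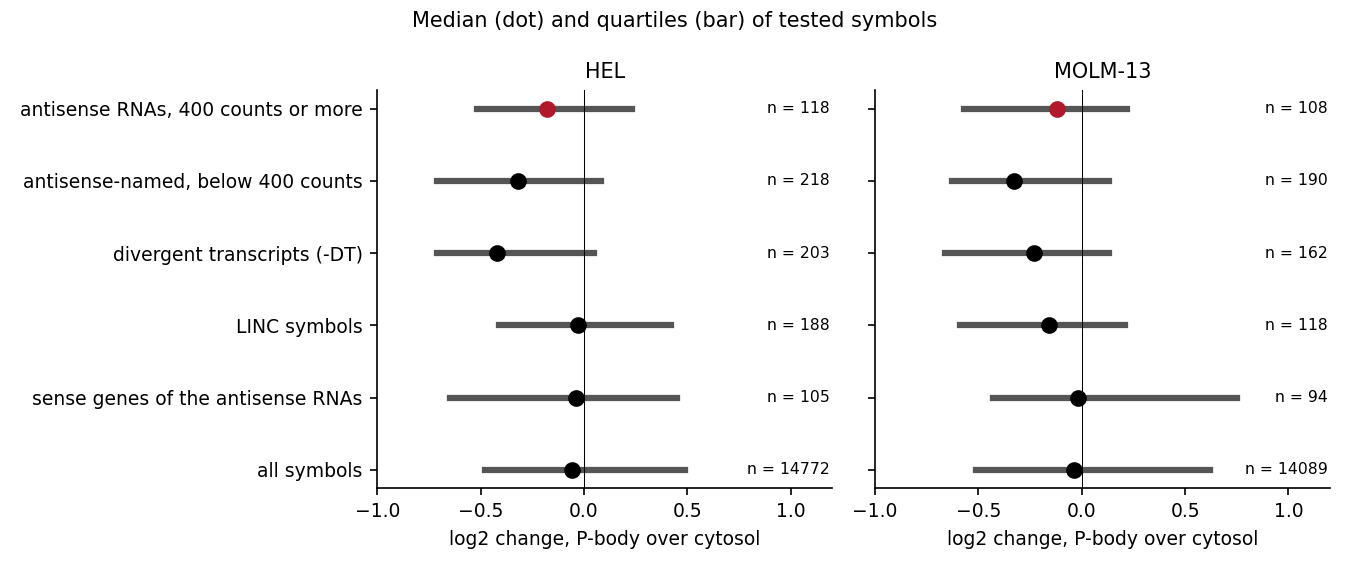
Median (dot) and quartiles (bar) of the log2 change, P-body over cytosol, for classes of symbols named on the y axis, in HEL and MOLM-13, with the number tested. The antisense RNAs with 400 counts or more (red) have medians of −0.18 and −0.12, between the lower-count antisense and divergent transcripts and the sense genes.

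Nuclear RNA was followed through 10 nuclear-retained noncoding RNAs, whose part in the changes above was not tested. They summed to 932 to 991 scaled CPM in HEL P-bodies against 809 to 887 in HEL cytosol, and to 3918 to 3941 in MOLM-13 P-bodies against 4963 to 5312 in MOLM-13 cytosol. SNHG14 alone carried the higher HEL sum: without it, left out after seeing the data, the sums were 727 to 784 in HEL P-bodies against 756 to 840 in HEL cytosol, which overlap. Of 7 tested, 1 was higher and 3 lower in HEL and 2 higher and 4 lower in MOLM-13. NEAT1 was lower in P-bodies of both lines (−1.11 ± 0.13 in HEL and −0.92 ± 0.060 in MOLM-13), MALAT1 was lower in MOLM-13 (−0.49 ± 0.040), with −0.01 ± 0.076 in HEL, and SNHG14 was higher in both (2.05 ± 0.085 in HEL and 1.01 ± 0.049 in MOLM-13). MEG3 and RMST had no counts in HEL P-bodies.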

How the data were processed

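RNA of P-body and cytosolic fractions was sequenced, with libraries made from total RNA by a NEBNext Ultra II kit, per the labels. The authors deposited whole-number read counts by gene symbol, with 1 table for each line, and the column names gave line, fraction and replicate. Among the tools and builds listed in the submitters' processing notes are STAR, SAMtools 1.12, DESeq2 and GRCh38, whereas the sources used here give neither the counter nor its strand setting or annotation release. Symbols on several rows (112 symbols, 0.0193% to 0.0477% of a library's counts) were left out.

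Each line was fitted with edgeR 4.0.16 in R 4.3.3 (TMM factors 0.858 to 1.17, filterByExpr with a smallest count of 10, quasi-likelihood test, Benjamini-Hochberg adjustment over all symbols tested, called under 0.05), and the interaction over all 8 libraries in 1 fit. Ratios of antisense to sense log2 CPM were tested with limma 3.58.1 (eBayes with trend) and adjusted over all pairs. Errors are standard errors, with 2 libraries per group. The biological coefficient of variation that edgeR estimated was 0.0781 for HEL and 0.0382 for MOLM-13. Libraries of 1 group differed beyond sampling noise (chi-square over degrees of freedom 1.87 to 6.15). Fits were tested on simulated data. All 122 RNAs matched GENCODE 29 by symbol. Its release may differ from the one counted, so lengths, GC contents and overlaps are those of GENCODE 29.

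The members, lists and alternatives were chosen with earlier results of these data known. Named RNAs follow a rule: the 6 highest and 6 lowest mean changes among those called alike in both lines, those called oppositely, the 6 lowest interaction p-values, the 4 lowest ratio p-values per line, the 4 most abundant per line, and those against myeloid leukaemia genes. Alternatives were RLE and total-count scaling, no filter, a stricter filter, DESeq2 1.42.0, a GC and length trend by mgcv 1.9.3, a replicate block, a member threshold of 1000 counts, another prior count for ratios, leaving out each library and, added after seeing the data, members chosen by mean CPM. A few items are not reported here.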

Additional observations from a re-analysis of the deposited data

Results flagged for a closer look

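A change in P-bodies that differed between MOLM-13 and HEL in the test of the difference itself singled out 12 of the 122 antisense RNAs. The log2 difference, MOLM-13 minus HEL, was −1.87 for NNT-AS1, −1.29 for KRT10-AS1, −1.08 for EMC3-AS1, −0.75 for CARD8-AS1, 1.0 for NRSN2-AS1 and 0.56 for CCDC18-AS1, as described above. It was −0.74 ± 0.22 for ARRDC1-AS1 (adjusted p = 0.0189), which had 7.64 and 7.59 scaled CPM in MOLM-13 P-bodies against 14.2 and 13.8 in MOLM-13 cytosol, and 13.8 and 12.5 in HEL P-bodies against 16.7 and 16.3 in HEL cytosol. For PRKCQ-AS1 it was −0.61 ± 0.19 (adjusted p = 0.0241), for SCOC-AS1 −0.86 ± 0.29 (adjusted p = 0.0368) and for THUMPD3-AS1 −0.38 ± 0.13 (adjusted p = 0.0411).

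ESAM-AS1 (−2.91 ± 0.96, adjusted p = 0.0322) and ELFN1-AS1 (−2.84 ± 1.0, adjusted p = 0.0479) were each nearly absent from 1 line. ESAM-AS1 had 1 and 1 counts in MOLM-13 P-bodies against 1 and 6 in MOLM-13 cytosol, and 22.3 and 21.5 scaled CPM in HEL P-bodies against 12.6 and 13.1 in HEL cytosol. ELFN1-AS1 had 9.02 and 8.89 scaled CPM in MOLM-13 P-bodies against 19.6 and 21.1 in MOLM-13 cytosol, and 4 and 2 counts in HEL P-bodies against 0 and 2 in HEL cytosol. Their differences therefore rest on a handful of counts in the line where each was rare.

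NNT-AS1, KRT10-AS1 and NRSN2-AS1 were called in every alternative fit run, with other scalings, filters, DESeq2, the replicate block, the GC and length trend and each library left out. The median difference of all symbols ran from −0.19 to 0.19 over these fits, and 9 of the 12 lost their call in at least 1 of them.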

How the results depend on the processing

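With 2 libraries per group, depth and spread limit what could be called among the RNAs near 400 counts. With library totals the counts of antisense RNAs higher and lower were 5 and 66 in HEL and 4 and 70 in MOLM-13, by construction of the scaling, and 6 had a negative difference between lines. DESeq2 gave 20 lower in HEL, 7 higher and 23 lower in MOLM-13 and 4 negative differences. With the GC and length trend removed there were 9 higher in MOLM-13, only 4 of them among the 14 called without that step, and 20 negative differences. In all, 31 of the 48 calls in HEL (6 of 15 higher) and 26 of the 49 in MOLM-13 remained under it. There were 4 negative differences without a filter, and with at least 5 CPM in 2 libraries 9 higher in MOLM-13 and 17 negative differences. With a threshold of 1000 counts, which keeps 46 RNAs, there were 9 higher and 13 lower in HEL, 9 and 13 in MOLM-13, 1 positive and 6 negative differences, ratios higher and lower for 12 and 12 in HEL and for 3 and 11 in MOLM-13. Replicate numbers did not pair the libraries (correlation of deviations −0.0685 in HEL and −0.0103 in MOLM-13). A replicate block gave 15 higher and 33 lower in HEL, 14 and 36 in MOLM-13, 2 and 9 differences, ratios of 16 and 25 in HEL and of 4 and 27 in MOLM-13. Leaving out 1 library gave 13 to 17 higher and 22 to 29 lower in HEL, 9 to 13 and 24 to 30 in MOLM-13, 1 to 9 positive and 3 to 9 negative differences, ratios of 7 to 20 and 12 to 28 in HEL and of 6 to 7 and 24 to 30 in MOLM-13. Other alternatives stayed within 1.5 times, RNAs chosen by mean CPM included. Among single RNAs the sign turned with the GC and length trend removed for PSMA3-AS1 in HEL (−0.13) and MOLM-13 (−0.23), CCDC18-AS1 (−0.47) and NNT-AS1 (−0.56) in MOLM-13, and with library totals for CCDC18-AS1 (−0.21), NNT-AS1 (−0.16) and PRKCQ-AS1 (−0.41) in MOLM-13. The cause was not tested beyond these settings. Of 58 named results 33 kept direction and call throughout, and of 596 alternative values 540 did.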
